A study of Mus musculus with 18 samples.

Results

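The genes described here encode the enzymes that make and use glutathione and the other antioxidant enzymes of the cell, 42 mouse genes taken from a list of names. All 42 were among the 46983 gene names of the deposited count tables. They comprise 6 genes of glutathione synthesis and recycling, 5 glutathione peroxidases, 9 glutathione transferases and 12 genes of the thioredoxin, glutaredoxin and peroxiredoxin systems. The remaining genes are 3 superoxide dismutases and catalase (4 genes), 4 genes of NRF2 regulation and stress-induced enzymes, and 2 ferritin chains. The 18 RNA libraries are of adipose and bone marrow from male mice of the inbred strain C57BL/6J, and every group carries the label HFD. The groups were adipose HFD + Gln (5 libraries, genotype and treatment field Glutamine), adipose HFD (4 libraries, genotype field Ctrl, treatment field no), bone marrow HFD + Gln (5 libraries) and bone marrow HFD (4 libraries), with the same fields as in adipose. Adipose samples are titled mAT-MSC VAT and bone marrow samples mBMSC. Age, dose and route of glutamine are not given in the labels, and no label states that each library is its own animal. A p-value here measures spread between samples only, which may be technical spread.

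Glutathione is a tripeptide of glutamate, cysteine and glycine, made by glutamate-cysteine ligase (the subunits encoded by Gclc and Gclm) and glutathione synthetase (Gss), and returned to its reduced form by glutathione reductase (Gsr). Glutamine is a source of its glutamate. Glutathione peroxidases use it to reduce peroxides and glutathione transferases join it to electrophiles, while thioredoxins and peroxiredoxins form a parallel route for peroxide removal. Many of these genes are targets of NRF2 (Nfe2l2), a transcription factor that KEAP1 marks for degradation in unstressed cells and that binds the antioxidant response element.

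The core of that element, TGACNNNGC on either strand, was looked for in RefSeq promoter windows of GRCm38.p6, each from 250 bases before to 50 bases after a RefSeq start of the gene (300 bases). Of 35 member genes with a window, 9 (25.7%) held a match, against 14.0% of 27025 genes with a window. By window the shares were 20.5% of 44 member windows and 12.4% of 32851 windows of all genes. The genes with a match were Sod1, Prdx1, Nfe2l2, Txnrd1, Gclm, Mgst1, Srxn1, Gstm5 and Ggct. A match is only a description of these letters, since no binding was measured. The windows of the 4 of them with the highest mean level over all libraries are shown because NRF2 control is the feature most often ascribed to these genes. Each is given 5′ to 3′ on the gene's strand, with the matching letters in capitals: Sod1 at chr16:90220512-90220811 (plus strand), Prdx1 at chr4:116685349-116685648 (plus), Nfe2l2 at chr2:75704614-75704913 (minus) and Txnrd1 at chr10:82858956-82859255 (plus).
Sod1: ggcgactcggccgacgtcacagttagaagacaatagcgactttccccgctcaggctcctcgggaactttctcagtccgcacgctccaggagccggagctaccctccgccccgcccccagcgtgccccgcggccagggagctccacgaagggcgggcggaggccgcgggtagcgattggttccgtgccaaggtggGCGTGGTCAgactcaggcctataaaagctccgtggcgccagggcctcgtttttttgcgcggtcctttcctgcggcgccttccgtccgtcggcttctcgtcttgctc
Prdx1: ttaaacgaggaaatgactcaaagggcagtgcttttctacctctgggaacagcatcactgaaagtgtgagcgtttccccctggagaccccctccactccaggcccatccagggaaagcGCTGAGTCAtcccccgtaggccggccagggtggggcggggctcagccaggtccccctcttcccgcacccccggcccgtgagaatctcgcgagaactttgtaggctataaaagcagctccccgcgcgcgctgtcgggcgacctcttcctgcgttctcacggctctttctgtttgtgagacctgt
Nfe2l2: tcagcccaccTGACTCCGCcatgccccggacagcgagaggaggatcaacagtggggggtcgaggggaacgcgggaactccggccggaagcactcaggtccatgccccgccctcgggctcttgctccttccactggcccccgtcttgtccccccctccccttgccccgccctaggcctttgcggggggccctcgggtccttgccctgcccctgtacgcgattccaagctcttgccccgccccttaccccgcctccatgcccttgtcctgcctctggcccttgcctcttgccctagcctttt
Txnrd1: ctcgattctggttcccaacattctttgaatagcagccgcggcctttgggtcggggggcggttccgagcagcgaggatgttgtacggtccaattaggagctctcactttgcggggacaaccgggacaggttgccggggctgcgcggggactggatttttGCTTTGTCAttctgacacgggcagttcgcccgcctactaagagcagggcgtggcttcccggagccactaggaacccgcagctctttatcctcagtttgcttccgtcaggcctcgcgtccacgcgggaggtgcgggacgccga
In Sod1, Prdx1 and Txnrd1 the core lay on the strand opposite the gene, so the capitals are its reverse complement. In Nfe2l2 it lay on the gene's own strand. The capitals began at position -56 in Sod1, -133 in Prdx1, -240 in Nfe2l2 and -92 in Txnrd1, counted from the RefSeq start of the printed window. Txnrd1 has 3 windows, and the printed one is at a start inside the gene, which spans chr10:82833951-82897712.

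Adipose libraries held 35871168 to 59529238 counts and those of bone marrow 13970788 to 37984603. At 100 counts or more, 11361 to 14469 genes were seen per adipose library and 1755 to 7323 per bone marrow library. Markers of adipose progenitors summed to 25993 to 43256 CPM (counts scaled to a library total of 1000000) in adipose and 1775 to 5919 CPM in bone marrow. Markers of osteoblasts and marrow stroma summed to 6071 to 10917 CPM in adipose and 54724 to 242265 CPM in bone marrow. Markers of red cells were present in both tissues, at 1900 to 17828 CPM in adipose and 5537 to 18497 CPM in bone marrow. 1 bone marrow column names the glutamine arm but carries a number pair of no sample title. It is called the unnumbered library here.

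Far more of the antioxidant genes were measured in every adipose library than in every bone marrow library. In adipose, 34 of 42 reached 100 counts in all 9 libraries and 41 did so in any. In bone marrow only Fth1 reached it in all 9 libraries, 33 genes did so in any and 9 in none. Over all genes that reached 100 counts in any library of a tissue, 48.6% did so in all 9 adipose libraries and 2.53% in all 9 bone marrow libraries. The antioxidant genes' shares were 82.9% in adipose and 3.03% in bone marrow. Single adipose libraries held 36 to 41 of the 42 genes at that level and single bone marrow libraries 8 to 30. The 2 bone marrow libraries with 8 genes, HFD 23_28 and the unnumbered glutamine library, stood apart, and results that rest on bone marrow are also given without them. Library 18_20 of the bone marrow glutamine arm held the most genes of that tissue, with 30.

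**Figure D1:**
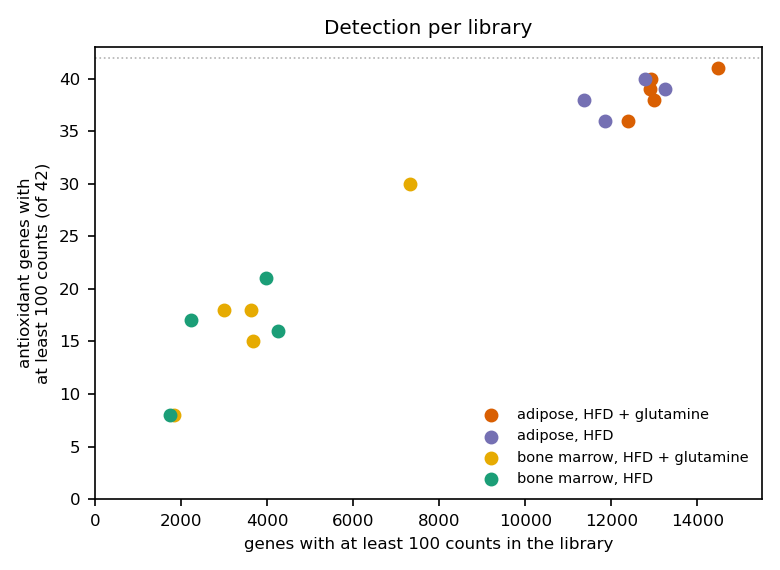
Number of the 42 antioxidant genes with at least 100 counts (vertical axis) against the number of all genes with at least 100 counts (horizontal axis), 1 point per library. Adipose libraries hold 36 to 41 antioxidant genes, bone marrow libraries 8 to 30.

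As a share of all counts, the 42 genes together took 0.841% to 0.994% in adipose and 0.492% to 0.985% in bone marrow. Fth1, the ferritin heavy chain, which oxidizes and stores iron, alone took 31.1% to 41.7% of that sum in adipose and 13.5% to 44.6% in bone marrow. Libraries were made from transcript 3′ ends, so these levels were not divided by gene length. In such bulk samples, fewer cells of a type and less RNA per cell cannot be told apart.

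**Figure D2:**
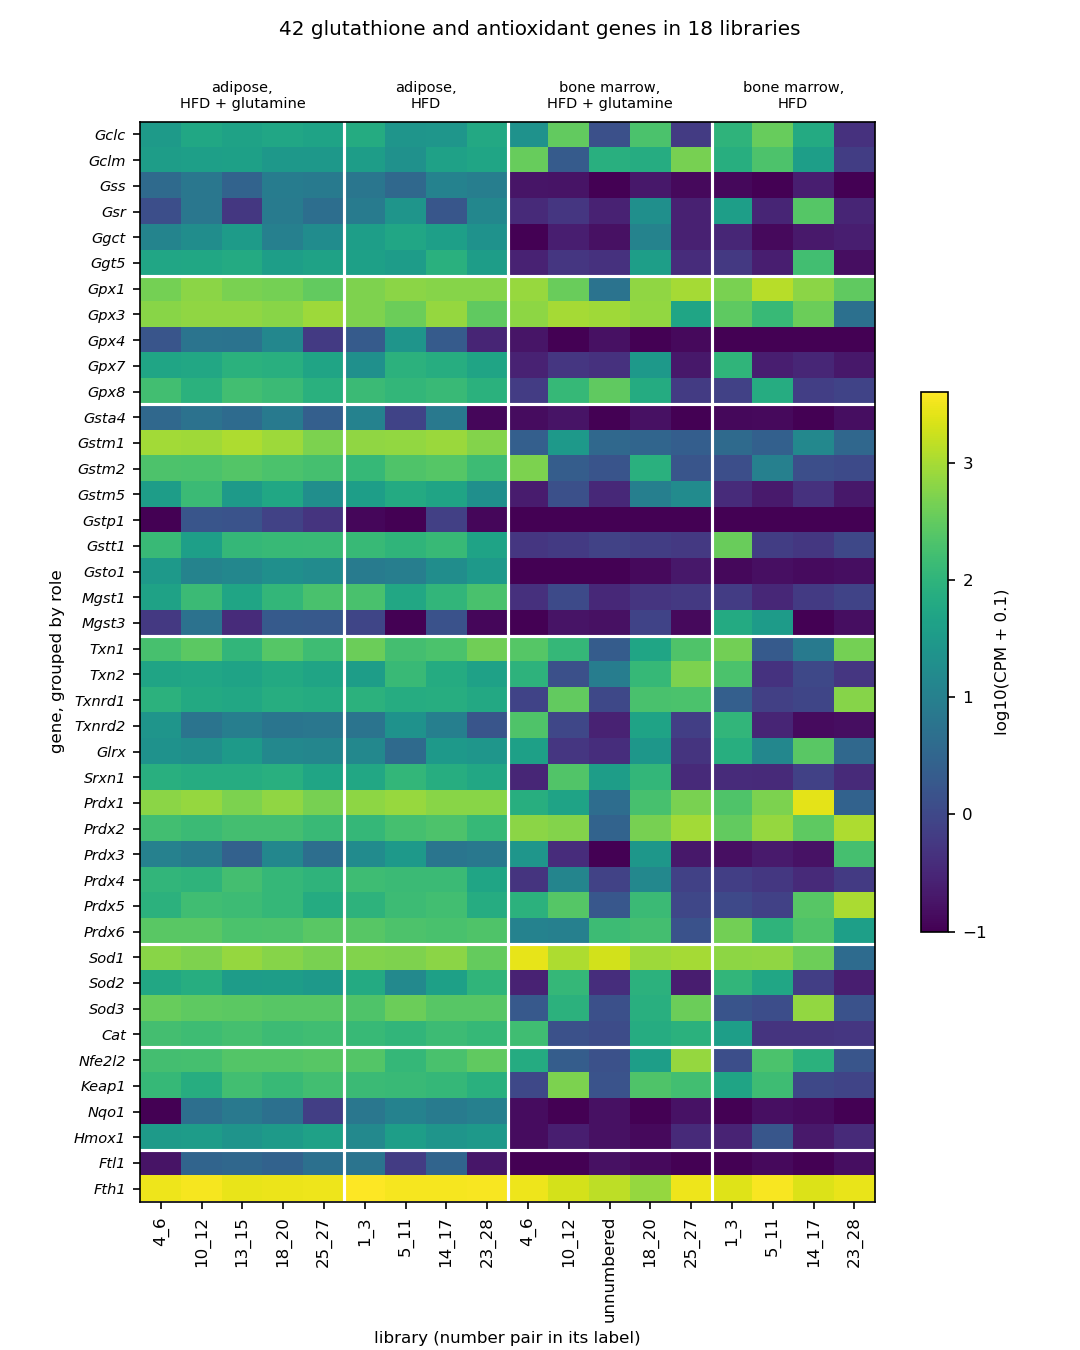
Level of each of the 42 genes (rows, grouped by role from glutathione synthesis at the top to ferritin at the bottom) in each of the 18 libraries (columns) as log10(CPM + 0.1). Fth1 is high in every column. In bone marrow several genes, such as Txnrd1, lie over 100 CPM in some libraries and under 1 CPM in others.

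In adipose the most abundant gene of each role was Fth1 among ferritins, Gstm1 among transferases, Prdx1 in the thioredoxin group, Gpx3 among peroxidases, Sod1 among dismutases, Nfe2l2 in the NRF2 group and Ggt5 in glutathione synthesis and recycling. Over all 9 adipose libraries Fth1 averaged 3373 ± 384 CPM (SD, n = 9 here and for the next means). Gstm1, a cytosolic transferase, averaged 792 ± 188 CPM. The cytosolic peroxiredoxin gene Prdx1 averaged 639 ± 109 CPM. Gpx3, the secreted plasma peroxidase, averaged 605 ± 179 CPM, and Sod1, the cytosolic copper-zinc dismutase, 558 ± 119 CPM. These levels lay closer together than the spread between libraries for Prdx1, Gpx3 and Sod1, so no order among the 3 is drawn. Nfe2l2 averaged 214 ± 55.1 CPM and Ggt5, a cell-surface enzyme that cleaves glutamyl bonds, 50.8 ± 15.9 CPM.

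Several central enzymes were counted at low levels in adipose. Gpx4, which reduces lipid peroxides in membranes, averaged 6.26 ± 8.12 CPM (SD, n = 9) and Ftl1, the ferritin light chain, 2.58 ± 2.02 CPM. Gss averaged 6.60 ± 2.78 CPM and Gsr 7.71 ± 7.67 CPM. Gstp1 was the one gene with a mean under 100 counts in both tissues and was counted at 0 in all 9 bone marrow libraries, which allows a pooled level of up to 0.0127 CPM (counting error only). Its last 361 aligned bases are 100% identical to Gstp2, those of Gpx4 match the copy Gpx4-ps2 at 99.75% over 400 bases, and those of Ftl1 match Ftl1-ps1 at 99.42% over 342 bases. Such 3′ ends were found for 8 genes, also Gstm1, Prdx1, Prdx2, Sod1 and Fth1 with identities of 96.21% to 98.5%. Reads that fit both copies may have been dropped or split by the counting, so the levels of these 8 are uncertain. The part of these copies in the low counts was not tested. A further limit is that 13 of the 42 genes overlap a gene on the opposite strand, among them Prdx2, Sod1, Gsto1 and Txnrd2, and the strand setting of the counting is not given in the sources used here.

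Among genes with a mean of at least 10 CPM, the median SD of log2(CPM + 1) over 9 adipose libraries was 0.43 for 34 antioxidant genes and 0.53 for 9405 genes. Fth1 had the smallest at 0.16, with a highest library 1.41 times the lowest. In bone marrow the medians were 2.93 for 29 antioxidant genes and 2.95 for 7686 genes. There the smallest was again that of Fth1, at 0.71.

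The first comparison asked whether glutamine went with a change of these genes in adipose. No antioxidant gene was called. Of 42 tested, 0 passed edgeR's quasi-likelihood test at an adjusted p under 0.05, beside 0 of 15114 genes (0%). At an unadjusted p under 0.05 there were 2 of 42 (4.76%), Ggct and Gpx3, against 4.13% of all genes. DESeq2 called 0 of the 42 and 31 genes in all. Log2 values of glutamine over HFD were above 0 for 22 of the 42 (52.4%, beside 48.6% of all genes) and below 0 for 20, with a median of 0.01, beside a median of -0.02 over all genes.

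None of the 6 genes with the smallest p-values passed the test. Ggct, whose product cleaves glutamyl peptides in glutathione breakdown, had 11.9, 18.4, 33.6, 10.0 and 17.6 CPM in the adipose glutamine libraries (4_6, 10_12, 13_15, 18_20 and 25_27), against 38.5, 53.4, 40.4 and 22.7 CPM in the HFD libraries (1_3, 5_11, 14_17 and 23_28). The arms overlapped through glutamine library 13_15 and HFD library 23_28. Its log2 fold change was -1.10 ± 0.420 (SE, unadjusted p = 0.0203, edgeR adjusted p = 1.00).

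Gpx3 had 609, 711, 702, 618 and 855 CPM in the same 5 glutamine libraries, against 516, 377, 754 and 303 CPM in the 4 HFD libraries. Every glutamine library stood above HFD libraries 1_3, 5_11 and 23_28, and the arms overlapped through HFD library 14_17. The log2 fold change was 0.51 ± 0.230 (SE, unadjusted p = 0.0442, adjusted p = 1.00). Gpx1, the cytosolic peroxidase, had 446, 633, 482, 438 and 320.3 CPM with glutamine, against 524, 648, 599.5 and 598 CPM with HFD alone. Here 1 glutamine library, 10_12, lay among the HFD libraries and the log2 fold change was -0.38 ± 0.190 (adjusted p = 1.00).

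Catalase (Cat), which breaks down hydrogen peroxide in peroxisomes, had 170.4, 153, 178, 146 and 159.7 CPM with glutamine, against 126, 106, 146 and 123 CPM with HFD alone. Its arms just met, at glutamine library 18_20 and HFD library 14_17. They did not overlap once scaled by TMM factors (trimmed mean of M-values, edgeR's correction of library size). It was the 1 gene of 42 (2.38%) with arms apart on that scale, beside 1.67% of all genes (1.04% higher and 0.635% lower with glutamine). Without that scaling 0 of 42 had arms apart, beside 1.66% of all genes (1.05% higher and 0.609% lower). The log2 fold change was 0.35 ± 0.172 (SE, adjusted p = 1.00).

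Txn1, cytosolic thioredoxin, had 186, 283, 106, 249 and 151 CPM with glutamine, against 377, 171, 204 and 415 CPM with HFD alone. The arms overlapped over much of their range, with the 2 highest values in HFD libraries 23_28 and 1_3 (log2 fold change -0.61 ± 0.313, adjusted p = 1.00). Fth1 had 3051, 3526, 2891, 3004 and 3128 CPM with glutamine, against 4072, 3499, 3487 and 3699 CPM with HFD alone. Glutamine library 10_12 lay just above the 2 lowest HFD libraries and the log2 fold change was -0.26 ± 0.137 (adjusted p = 1.00). Summed macrophage markers were 470 to 1110 CPM in the glutamine libraries and 803 to 2243 CPM in the HFD libraries. All 13 tested markers of that list had negative log2 values and 0 were called. Of 9 lymphocyte markers tested, 8 had negative values and 0 were called. Their part in the values of the antioxidant genes was not tested.

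By role, values above 0 stood at 2 of 6 genes of glutathione synthesis and recycling, 3 of 5 peroxidases, 7 of 9 transferases and 3 of 12 thioredoxin, glutaredoxin and peroxiredoxin genes. The same count was 3 of 4 for dismutases and catalase, 3 of 4 for the NRF2 group and 1 of 2 ferritins. None of these passed the test. Gstm1 had a log2 fold change of 0.27 ± 0.210. Prdx1 had 636, 761, 496, 691 and 454 CPM in adipose with glutamine, against 674, 786, 629 and 623 CPM with HFD alone (-0.18 ± 0.184). Sod1 had 620.3, 532, 749, 592 and 479 CPM with glutamine, against 552, 518, 651 and 326 CPM with HFD alone (0.20 ± 0.206). The arms of both genes overlapped. Nfe2l2 had 171, 177, 237, 233 and 261 CPM with glutamine, against 236, 119, 191 and 303 CPM with HFD alone (0.00 ± 0.246). Ggt5 had 54.3, 55.5, 66.9, 39.0 and 45.5 CPM with glutamine, against 41.97, 34.9, 82.6 and 36.0 CPM with HFD alone (0.09 ± 0.303). For both, the HFD libraries lay on either side of the glutamine libraries. The ligase subunits Gclc and Gclm, which set the rate of glutathione synthesis, stood at 0.04 ± 0.340 and -0.13 ± 0.317.

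**Figure D3:**
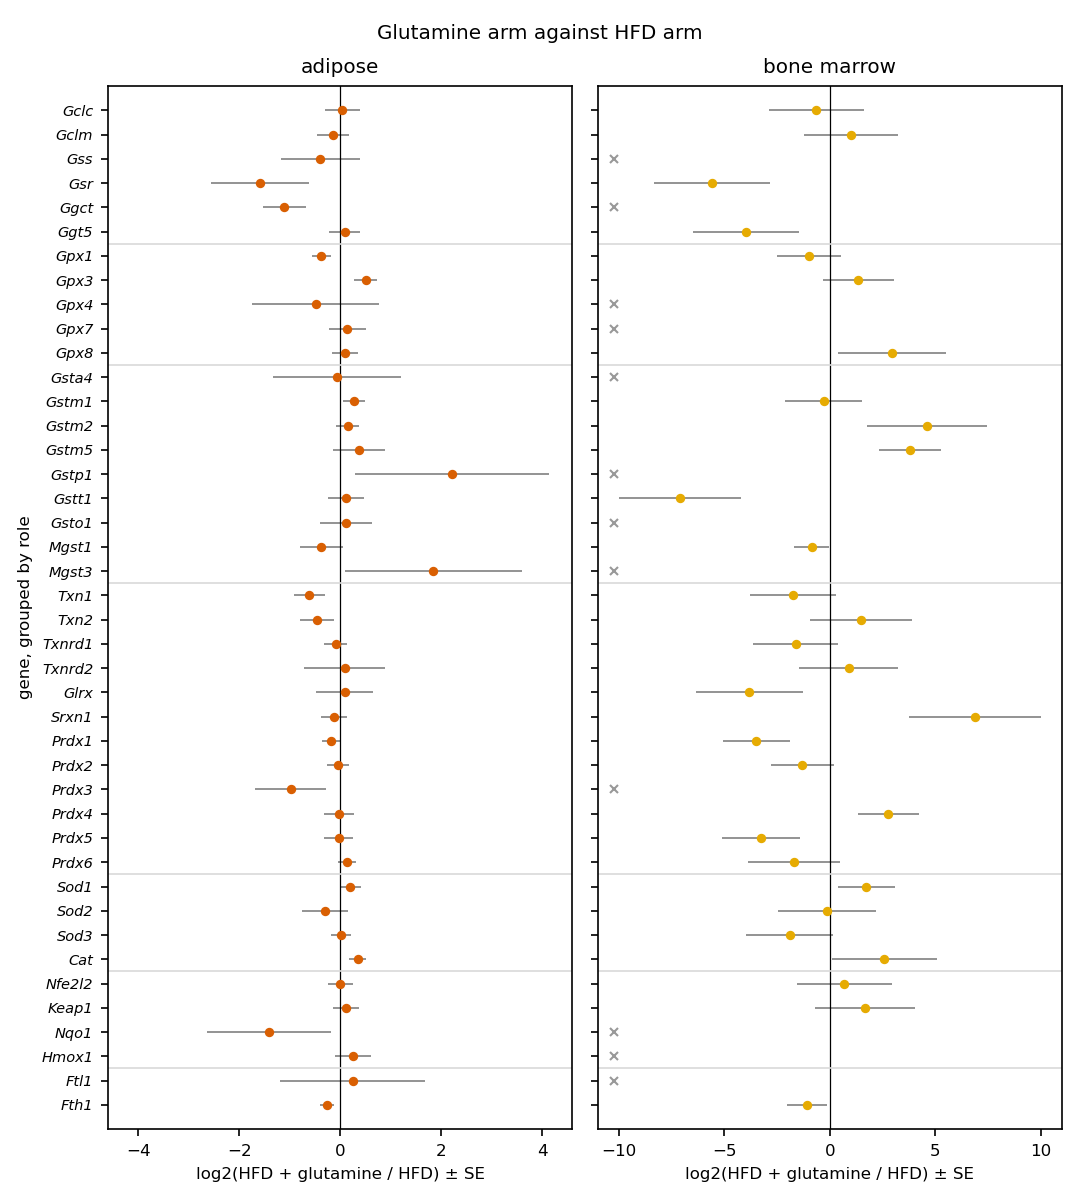
Log2 fold change of the glutamine arm over the HFD arm (points) with its SE (bars) for each gene, adipose at left and bone marrow at right, on axes of different range. Crosses mark 12 genes that did not pass the count filter in bone marrow. No gene was called in either tissue, and the bars are several times longer in bone marrow.

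In bone marrow the antioxidant genes were present in some libraries and nearly absent in others of the same arm. Fth1 had 3062, 2058, 1433, 759 and 3117 CPM in the glutamine libraries (4_6, 10_12, unnumbered, 18_20 and 25_27), against 2432, 3705, 2312 and 2915 CPM in the HFD libraries. It was high in every library, and the arms overlapped. Gpx1 had 778, 367, 5.63, 704 and 986 CPM with glutamine, against 479, 1303, 642 and 302 CPM with HFD alone. Gpx1 was high everywhere but in the unnumbered library. Prdx2, a cytosolic peroxiredoxin abundant in red cells, had 654, 572, 2.84, 458 and 922 CPM with glutamine, against 324, 768, 288 and 1117 CPM with HFD alone. It too was low in the unnumbered library alone.

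Sod1 had 2759, 1111, 1989, 872 and 966 CPM with glutamine, against 665, 689, 394 and 3.97 CPM with HFD alone. Every glutamine library stood above every HFD library in CPM, which held for 1 of the 30 genes tested (3.33%), beside 3.53% of all genes in that direction and 3.77% in either. Scaled by TMM factors the arms overlapped, as they did for all 30, beside 2.5% of all genes with arms apart (1.99% higher with glutamine), and the log2 fold change was 1.73 ± 1.35 (SE, edgeR adjusted p = 0.573). Gpx3 had 680.3, 966, 883, 714 and 50.4 CPM with glutamine, against 291, 126, 381 and 4.87 CPM with HFD alone. It overlapped through glutamine library 25_27 and stood at 1.35 ± 1.68 (adjusted p = 0.791).

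Genes of synthesis and regulation lay far apart between libraries of 1 arm. Gclm had 346, 2.00, 81.2, 72.6 and 459 CPM with glutamine, against 77.8, 214, 37.7 and 0.596 CPM with HFD alone. Gclc had 22.3, 323, 1.24, 202 and 0.520 CPM with glutamine, against 100.3, 352, 66.7 and 0.348 CPM with HFD alone. With glutamine, Gclm was highest in libraries 25_27 and 4_6 and Gclc in 10_12 and 18_20. Nfe2l2 had 68.7, 2.15, 1.30, 38.9 and 748 CPM with glutamine, against 1.16, 197, 86.8 and 1.54 CPM with HFD alone. Libraries near 1 CPM occurred in both arms.

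Over the glutamine comparison in bone marrow, 30 of 42 genes passed the count filter and 0 were called, beside 8 of 6041 genes (0.132%). At an unadjusted p under 0.05 there were 5 of 30 (16.7%), against 18.7% of all genes tested. DESeq2 called 1 of the antioxidant genes, Srxn1, beside 722 of the 3471 genes it gave an adjusted p (20.8%). Log2 values were above 0 for 13 (43.3%, beside 46.6% of all genes) and below 0 for 17, with a median of -0.46 beside -0.22 for all genes. That median turned to 0.03 with library totals in place of TMM factors and to 0.32 with limma-voom. Without the 2 libraries that stood apart, 0 were called as well and the median was -0.13.

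The 6 smallest p-values each rested on a few libraries. Gstm5, a mu-class transferase, had 0.129, 1.22, 0.237, 9.81 and 16.5 CPM with glutamine, against 0.263, 0.115, 0.357 and 0.0993 CPM with HFD alone. Glutamine libraries 18_20 and 25_27 were high, 10_12 stood at 1.22 CPM and the remaining glutamine libraries lay within the HFD range (log2 fold change 3.81 ± 1.48, adjusted p = 0.197). Gstt1, a theta-class transferase, had 0.430, 0.501, 0.711, 0.577 and 0.488 CPM with glutamine, against 367, 0.575, 0.464 and 0.894 CPM with HFD alone. Only HFD library 1_3 was high (-7.09 ± 2.88, adjusted p = 0.197).

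Prdx1 had 77.1, 46.7, 4.26, 188 and 472 CPM with glutamine, against 217, 510.0, 2640.4 and 2.68 CPM with HFD alone. The highest value was HFD library 14_17 and the lowest HFD library 23_28, so the arms overlapped throughout (-3.48 ± 1.58, adjusted p = 0.206). Srxn1, sulfiredoxin, which restores over-oxidized peroxiredoxins, had 0.215, 226, 36.8, 112 and 0.260 CPM with glutamine, against 0.263, 0.259, 0.679 and 0.248 CPM with HFD alone. It was high in 3 of 5 glutamine libraries and in 0 of 4 HFD libraries (6.88 ± 3.15, adjusted p = 0.208).

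Gsr had 0.258, 0.429, 0.178, 19.5 and 0.163 CPM with glutamine, against 37.5, 0.201, 246 and 0.199 CPM with HFD alone. Library 18_20 of the glutamine arm and libraries 1_3 and 14_17 of the HFD arm were high (-5.57 ± 2.74, adjusted p = 0.243). Prdx4, the peroxiredoxin of the endoplasmic reticulum, had 0.387, 12.5, 0.711, 13.9 and 0.683 CPM with glutamine, against 0.606, 0.460, 0.250 and 0.497 CPM with HFD alone. Glutamine libraries 10_12 and 18_20 were high (2.77 ± 1.43, adjusted p = 0.278). Gstm2, the most abundant transferase of this tissue by mean, had 504, 2.22, 1.48, 85.3 and 1.56 CPM with glutamine, against 1.16, 9.93, 1.18 and 0.993 CPM with HFD alone. Its mean rests on library 4_6 (4.62 ± 2.85, adjusted p = 0.404).

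**Figure D4:**
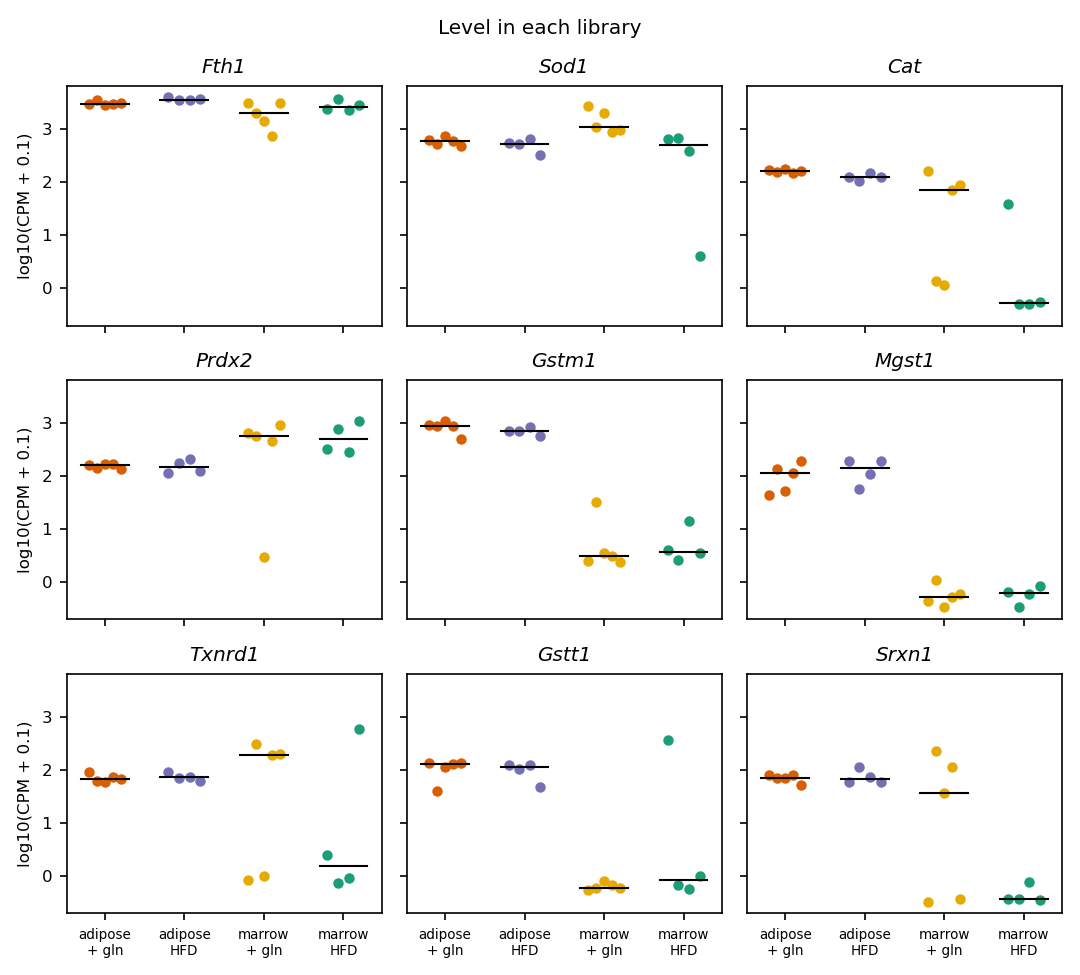
Level of 9 antioxidant genes in each library as log10(CPM + 0.1), with adipose glutamine, adipose HFD, bone marrow glutamine and bone marrow HFD libraries from left to right (points) and the median of each group (line). Fth1 is high in all 18 libraries, Mgst1 and Gstm1 are low in all bone marrow libraries, and within bone marrow Gstt1 is split among HFD libraries, Srxn1 among glutamine libraries and Txnrd1 within both groups.

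Whether glutamine went with different changes in adipose and in bone marrow was tested as a difference of the effects, in 1 fit of all 18 libraries. Of 42 genes, 3 were called (7.14%), against 1811 of 15203 genes (11.9%), a share below that of all genes. Gstt1 and Mgst3 had a higher glutamine effect in adipose (4.76%, beside 4.05% of all genes) and Srxn1 a lower one (2.38%, beside 7.87%). Mgst3 did not pass the count filter in bone marrow alone, so its call gives no support to a difference. With library totals alone the same 3 were called, beside 4.05% of all genes higher and 10.1% lower. The difference was 7.37 ± 2.24 on the log2 scale for Gstt1 (adjusted p = 0.0437), 9.42 ± 2.73 for Mgst3 (adjusted p = 0.0432) and -7.28 ± 2.11 for Srxn1 (adjusted p = 0.0432). In the fit of bone marrow alone the SE was larger, at 2.88 for Gstt1 and 3.15 for Srxn1, and neither gene was called. The fit of all 18 libraries took 1 dispersion (spread between replicates) per gene over both tissues, and adipose libraries varied far less. The SEs and p-values of the difference may therefore be too small.

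Within adipose none of these 3 genes passed the test of glutamine. Gstt1 had 136, 40.7, 116, 128 and 135 CPM in adipose glutamine libraries, against 126, 104, 126 and 47.8 CPM in adipose HFD libraries. Srxn1 had 81.7, 71.6, 70.7, 79.6 and 50.7 CPM in adipose glutamine libraries, against 58.1, 111, 74.8 and 57.9 CPM in adipose HFD libraries. Both sets overlapped throughout. Mgst3, a microsomal transferase, had 0.477, 5.38, 0.273, 1.89 and 1.86 CPM in adipose glutamine libraries, against 0.833, 0, 1.34 and 0.0220 CPM in adipose HFD libraries. In bone marrow it had 0, 0.0716, 0.0592, 0.737 and 0.0325 CPM with glutamine, against 65.7, 34.3, 0 and 0.0497 CPM with HFD alone. In position, Gstt1 lies on chromosome 10 (75783813 to 75798584), Mgst3 on chromosome 1 (167371966 to 167393841) and Srxn1 on chromosome 2 (152105516 to 152111376) of GRCm38, and all are protein-coding. Among the bone marrow libraries, Gstt1 was high in HFD library 1_3 alone, Mgst3 in HFD libraries 1_3 and 5_11, and Srxn1 in 3 glutamine libraries.

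These 3 calls changed with the processing. Of the 42 genes, 0 were called with upper-quartile or relative log expression factors, with limma-voom, or without any 1 of the adipose libraries or of bone marrow HFD libraries 1_3 and 23_28. Without the 2 bone marrow libraries that stood apart, 4 of 42 genes were called, Gstt1, Mgst3, Prdx3 and Txnrd1, beside 9.09% of all genes, and Srxn1 was not. Without bone marrow HFD library 5_11 Gstt1 was the 1 call left, and without 14_17 it was Mgst3.

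The last comparison set adipose against bone marrow. Each tissue has its own isolation and its own count table, and what each contributes cannot be told apart. Of 42 genes, 22 were called (52.4%), beside 51.7% of 15203 genes. Higher in adipose were 13 (31%), beside 40.5% of all genes, and lower were 9 (21.4%), beside 11.2%. Of the 13, 9 did not pass the count filter in bone marrow alone and entered the fit through adipose, where they were high, so their count gives no support to a difference. They were Ggct, Gss, Gpx4, Gsta4, Gstp1, Gsto1, Nqo1, Hmox1 and Ftl1. The same held for 5611 of the 6150 genes called higher overall (91.2%). The direction depended on the scaling. Over all genes tested, the median log2 difference stood at 1.43 under TMM, -1.94 under relative log expression factors, -0.89 under upper-quartile factors and 3.17 under library totals alone. The split of calls was 13 higher and 9 lower with TMM, 4 higher and 24 lower with relative log expression and 5 higher and 22 lower with upper-quartile factors, while library totals gave 17 higher and 1 lower. Relative to the median of all genes, the median of the 42 was -2.28, -2.60, -2.40 and -2.18 in the same order. With TMM factors 27 of the 42 lay below the median of all genes. Of all 15203 genes, 6041 passed the count filter in bone marrow alone, against 30 of the 42. The 2 medians thus come from unlike sets, as do the shares called lower. Neither the values below 0 nor these shares give support to a difference of the antioxidant genes.

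**Figure D5:**
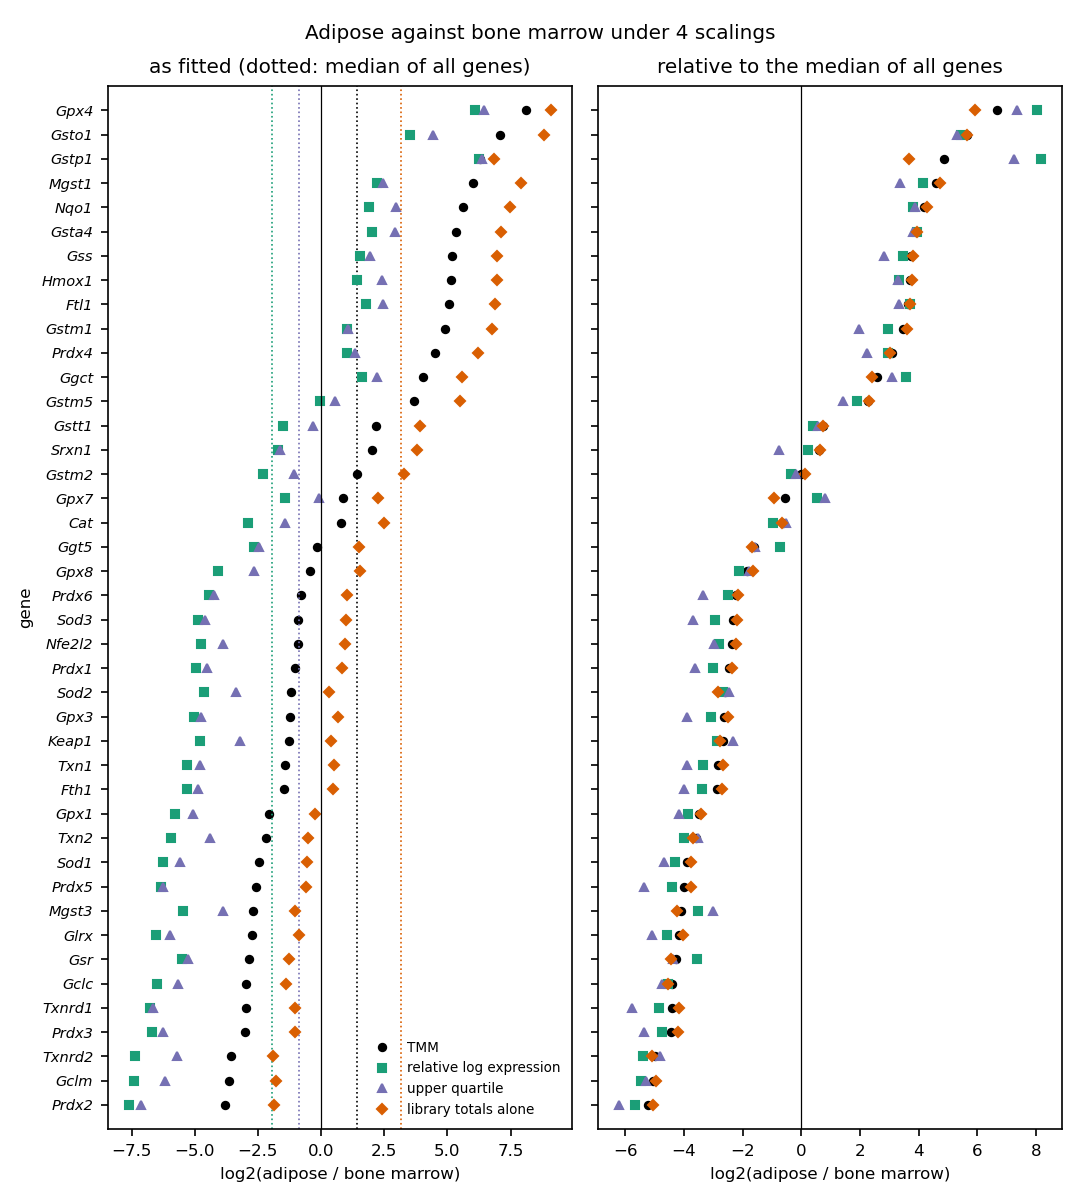
Log2 difference of adipose against bone marrow for each gene under 4 scalings (symbols), as fitted at left, with the median of all genes for each scaling as a dotted line, and relative to that median at right. As fitted, most genes lie above 0 with library totals and below 0 with relative log expression factors. Relative to the median, Gpx4 and Gsto1 lie near the top and Prdx2 near the bottom under all 4.

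Of the 9 glutathione transferases, 6 were called higher and 0 lower with TMM factors, where 40.5% of all genes were higher. Of those 6, Gstm1, Gstm5 and Mgst1 passed the bone marrow filter. Under either of the other 2 scalings, relative log expression and upper-quartile, only Gsto1 and Mgst1 were called higher. Gstm1 had 916, 897, 1117, 872 and 505 CPM in adipose glutamine libraries and 705, 714, 825 and 574 CPM in adipose HFD libraries, against 2.37, 31.6, 3.49, 3.05 and 2.24 CPM in bone marrow glutamine libraries and 3.84, 2.47, 14.2 and 3.43 CPM in bone marrow HFD libraries. Every adipose library stood above every bone marrow library, with a lowest adipose value of 505 CPM and a highest bone marrow value of 31.6 CPM. The log2 difference was 4.91 ± 0.818 with TMM factors (SE, edgeR adjusted p = 4.47e-05), but it did not pass the test with relative log expression factors (adjusted p = 0.362) or upper-quartile factors (adjusted p = 0.394).

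Mgst1, a membrane-bound transferase of the endoplasmic reticulum and mitochondria, had 44.4, 137, 51.7, 115 and 194 CPM in adipose glutamine libraries and 191, 57.4, 108 and 195 CPM in adipose HFD libraries, against 0.230 to 1.00 CPM in the 9 bone marrow libraries. Its 4 to 21 counts per bone marrow library were under 100 in all of them. The log2 difference was 6.02 ± 0.895 (adjusted p = 1.23e-05). Gsto1, an omega-class transferase, had 30.3, 11.3, 13.7, 19.9 and 16.7 CPM in adipose glutamine libraries and 8.22, 9.26, 18.3 and 31.3 CPM in adipose HFD libraries, against 0 to 0.0976 CPM in bone marrow. Bone marrow held 9 counts of it in all.

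Gpx4 had 1.55, 5.91, 5.69, 13.6 and 0.508 CPM in adipose glutamine libraries and 2.04, 24.8, 2.01 and 0.198 CPM in adipose HFD libraries, against 0 to 0.0861 CPM in bone marrow. Bone marrow held 4 counts of it in all. Nqo1, a quinone reductase and NRF2 target, had 0, 4.69, 7.29, 4.85 and 0.614 CPM in adipose glutamine libraries and 6.74, 11.1, 8.29 and 10.2 CPM in adipose HFD libraries, against 0 to 0.0650 CPM in bone marrow. Bone marrow held 7 counts of Nqo1 in all. Since Gsto1, Gpx4 and Nqo1 did not pass the bone marrow filter, their values are given as a description, with no test. The fitted log2 differences, 7.07 ± 0.857 for Gsto1, 8.11 ± 1.46 for Gpx4 and 5.62 ± 1.14 for Nqo1, depend on the prior count at such low numbers and are no bounds.

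Of the 13 genes called higher with TMM factors, Mgst1 was the 1 that both passed the bone marrow filter and was called higher under all 3 scalings and with library totals. Ggct, Gsto1 and Gpx4 were called under all of these too (4 of 42 in all, 9.52%, beside 15.7% of all genes) but did not pass that filter. In CPM, all 9 adipose libraries stood above all 9 bone marrow libraries for 9 genes (21.4%, beside 16% of all genes). These were Gstm5, Mgst1, Prdx4 and Gstm1, and 5 that did not pass the bone marrow filter, Hmox1, Gsto1, Gss, Ftl1 and Gpx4. Those 5 entered the fit through adipose, so the share of 21.4% gives no support to a difference. Hmox1, heme oxygenase, which breaks down heme, averaged 30.7 ± 8.56 CPM in adipose (SD, n = 9) and 0.296 ± 0.490 CPM in bone marrow (SD, n = 9). No antioxidant gene had all adipose libraries below all bone marrow libraries, beside 0.21% of all genes.

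The 9 genes lower in adipose with TMM factors were also lower with relative log expression and upper-quartile factors (21.4%, beside 11.2% of all genes). The same held for all 1708 genes called lower with TMM factors. Both other scalings move the median of all genes down, so this agreement adds no support. The shares of 21.4% and 11.2% also come from unlike sets. Of the 42 genes 30 passed the bone marrow filter, against 6041 of 15203 genes. The 9 were 2 of 6 of glutathione synthesis (Gclc and Gclm), Gpx1, 4 of 12 of the thioredoxin group (Prdx2, Txnrd1, Txnrd2 and Glrx), Sod1 and Fth1. Prdx2 had 161, 141, 168, 171 and 134 CPM in adipose glutamine libraries and 116, 177, 213 and 123 CPM in adipose HFD libraries. In bone marrow it ran from 288 to 1117 CPM apart from 2.84 CPM in the unnumbered library. The log2 difference was -3.80 ± 0.707 (adjusted p = 0.000154), and Prdx2 was the 1 gene called lower under all 3 scalings and with library totals (2.38%, beside 2.56% of all genes). With library totals the difference was -1.87 (adjusted p = 0.0172).

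Gclm differed by -3.64 ± 0.980 (adjusted p = 0.00443) and Gclc by -2.99 ± 1.08 (adjusted p = 0.0257). Gclm had 37.2, 40.7, 40.9, 28.4 and 28.1 CPM in adipose glutamine libraries and 36.9, 21.1, 42.9 and 51.6 CPM in adipose HFD libraries. Gclc had 32.9, 56.5, 46.0, 54.1 and 47.3 CPM in adipose glutamine libraries and 67.4, 25.3, 26.7 and 61.2 CPM in adipose HFD libraries. Both lay within the range of the bone marrow libraries, and neither was called with library totals (adjusted p = 0.0970 for Gclm and 0.283 for Gclc).

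The thioredoxin reductases of cytosol and mitochondria, Txnrd1 and Txnrd2, ranged more widely in bone marrow than in adipose. Txnrd1 had 91.6, 62.0, 58.3, 74.8 and 67.1 CPM in adipose glutamine libraries and 91.9, 70.9, 73.6 and 61.0 CPM in adipose HFD libraries, against 0.732, 313, 0.889, 190.2 and 204 CPM in bone marrow glutamine libraries and 2.42, 0.633, 0.821 and 599 CPM in bone marrow HFD libraries. Txnrd2 had 25.3, 5.80, 9.34, 5.97 and 6.503 CPM in adipose glutamine libraries and 5.89, 22.2, 9.60 and 1.52 CPM in adipose HFD libraries, against 221, 0.859, 0.178, 46.4 and 0.618 CPM in bone marrow glutamine libraries and 108, 0.201, 0.0357 and 0.0497 CPM in bone marrow HFD libraries. Bone marrow libraries lay on both sides of the adipose range for both genes. The log2 differences were -2.99 ± 1.23 for Txnrd1 and -3.57 ± 1.47 for Txnrd2 (adjusted p = 0.0470 each). That of Txnrd1 was 0.98 without bone marrow HFD library 23_28 and that of Txnrd2 was 0.43 without HFD library 1_3.

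Fth1 differed by -1.46 ± 0.324 with TMM factors (adjusted p = 0.000900), but by 0.48 with library totals (adjusted p = 0.127). Its mean CPM was 3373 ± 384 in adipose and 2422 ± 913 in bone marrow (SD, n = 9 each), so its direction rests on the scaling. Sod1 differed by -2.46 ± 0.592 (adjusted p = 0.00183) with TMM factors and by -0.57 with library totals (adjusted p = 0.404). Of 9 red-cell markers tested, 6 were called lower in adipose and 0 higher with TMM factors, while their summed CPM overlapped between the tissues. Neutrophil markers summed to 58.7 to 311 CPM in adipose and 2966 to 54792 CPM in bone marrow, with all 11 tested called lower, and the defining marker Ly6g was at 0 in every library. Endothelial markers summed to 476 to 1931 CPM in adipose and 3.08 to 258 CPM in bone marrow, with all 8 called higher, beside 40.5% of all genes. Only 4 of the 8 passed the bone marrow filter, so this count gives no support to a difference. The part of these cell types in the differences was not tested. Without the 2 bone marrow libraries that stood apart, 22 of the 42 were called, 13 higher and 9 lower, beside 51.1% of all genes.

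Other genes of the pathway, from lists outside the 42, were tested in the same fits. Under glutamine 0 were called in either tissue, of 96 tested in adipose and 55 in bone marrow. Between tissues the effect of glutamine was called different for 10 of 96 genes (10.4%, beside 11.9% of all genes), and for 0 of all genes under either of the other 2 scalings. Between tissues with TMM factors, 13 of 23 other glutathione enzymes were called higher in adipose and 0 lower, where 40.5% of all genes were higher and 11.2% lower. Only 3 of the 23 passed the bone marrow filter and none of the 13 did, so their count gives no support to a difference. As a description, the fitted log2 difference was 6.68 for the transferase Gsta3 and 6.29 for Oplah, which recycles 5-oxoproline from glutathione breakdown. Of 11 genes that supply NADPH, the reducing power of these enzymes, 4 were lower and 0 higher. Of the 11, 9 passed the bone marrow filter, against 6041 of 15203 genes, so this count gives no support to a difference. Among the 4 were the pentose phosphate enzymes Tkt at -4.13 ± 0.907 (adjusted p = 0.000825) and Taldo1 at -3.38 ± 0.634 (adjusted p = 0.000168). Their directions were the same with relative log expression and upper-quartile factors. That held for all 1708 genes called lower with TMM factors, so it adds no support. Values with library totals are not given for these genes.

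The counts of the remaining lists are also with TMM factors, where 40.5% of all genes were higher and 11.2% lower. With library totals 2.56% of all genes were called lower, so calls in that direction depend on the scaling. Of 21 NRF2 partners and other targets, 4 were higher, of which 0 passed the bone marrow filter, and 2 lower. Akr1b8, an aldo-keto reductase among the 4, had a fitted difference of 6.63. Among those lower was Blvrb, a biliverdin and flavin reductase abundant in red cells, at -4.90 ± 0.642 (adjusted p = 4.30e-06). Of 18 cystine, thioredoxin and glutaredoxin partners, 4 were higher and 2 lower. Of the 4, 1 passed the bone marrow filter. Sesn3, a sestrin, and the methionine sulfoxide reductase Msra did not, and had fitted differences of 6.03 and 5.51. Of 10 genes of metal handling, 1 was higher and 3 lower. The copper chaperone Atox1 stood at 4.76 ± 0.875 (adjusted p = 0.000135) and the transferrin receptor Tfrc at -6.30 ± 0.956 (adjusted p = 1.54e-05). Of 13 genes of selenoproteins or of their synthesis, 2 were higher and 0 lower. Selenom stood at 3.20 ± 0.994 (adjusted p = 0.0113) but was negative with relative log expression factors. Sepsecs, with a fitted difference of 4.26, did not pass the bone marrow filter.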

How the data were processed

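RNA from adipose and bone marrow samples was made into 3′ end libraries (QuantSeq FWD, which reads transcript 3′ ends), per the labels' protocols. The deposited values are raw counts per gene in 1 table per tissue. Per the submitters' processing notes the tools were FastQC 0.12.1, STAR 2.7.10b and HTSeq 0.11.3 with build GRCm38. Annotation, strand setting and duplicate handling: not given in the sources used here. No row lacked a gene name. 1 bone marrow column that names the glutamine arm but matches no sample title was used as a replicate of that arm without a number.

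The 42 genes and all lists were chosen with earlier results of these data known. Counts were divided by library totals to give CPM. Tests used edgeR 4.0.16 in R 4.3.3 (TMM factors, filterByExpr with a minimum count of 10, quasi-likelihood test, Benjamini-Hochberg adjustment over all genes tested, called at an adjusted p under 0.05). Each tissue was fitted on its 9 libraries for glutamine. All 18 libraries were fitted together for the difference of effects and for adipose against bone marrow. The fit of all 18 libraries took 1 dispersion per gene over both tissues, although their spread differed. The SE of an edgeR log2 value was computed as its absolute size divided by the square root of the F value of the quasi-likelihood test. The steps were run on simulated data. Recovery of changes was required there only at a low spread between libraries, and not for the difference of effects. The simulation therefore does not show how well changes are found at the real spread of bone marrow. The alternatives tried were upper-quartile and relative log expression factors, no filter and a minimum count of 50, DESeq2 1.42.0, limma 3.58.1 (voom with quality weights), a joint fit, each library left out and a replicate block. Library totals alone, leaving out the 2 bone marrow libraries with the fewest genes and the block's libraries without the block were added after seeing the data. Values in every library are given for the most abundant gene of each role and tissue, the 6 smallest p-values per tissue for glutamine, genes called for the difference of effects, and the 5 genes furthest from the median of all genes in each direction between tissues. Bone marrow values of Mgst1, Gsto1, Gpx4 and Nqo1 are given as ranges. Genes with a mean under 100 counts in both tissues are only counted. Some further values were added after they were seen (Gpx3 in bone marrow, Hmox1 and the low adipose levels of Gpx4, Ftl1, Gss and Gsr). Like 3′ ends were searched with BLAST+ 2.17.0 over the last 400 bases of each gene's transcripts, at 95% identity or more over at least 200 bases.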

Additional observations from a re-analysis of the deposited data

Results flagged for a closer look

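A library apart was looked for in 116 sets of 4 or 5 libraries. The sets were 27 genes given with full values and 2 summaries of each library, in each of 4 groups. The summaries were the number of the 42 genes at 100 counts or more and their share of all counts. In each set the highest or lowest library was compared with the rest by Dixon's criterion, for genes on log2(CPM + 1). Gene sets with no library at 100 counts or more were left out of the comparison. The highest or lowest library stood apart in 16 sets, 2 in adipose and 14 in bone marrow. Chance gives about 1 in 20 of the sets compared, which were fewer than 116. In adipose, Gstt1 had 40.7 CPM in glutamine library 10_12, where the others had 116 to 136 CPM, and Prdx4 had 50.7 CPM in HFD library 23_28, where the others had 137 to 154 CPM.

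In the bone marrow glutamine arm, library 18_20 was the high one for Ggct (11.6 CPM, others up to 0.163 CPM), Ggt5 (38.1 CPM, others up to 0.429 CPM) and Gsr (19.5 CPM, others up to 0.429 CPM). Gstm1 was high in 10_12 (31.6 CPM, others 2.24 to 3.49 CPM). The unnumbered library was low for Gpx1 (5.63 CPM, others 367 to 986 CPM) and Prdx2 (2.84 CPM, others 458 to 922 CPM). Gpx3 was low in 25_27 (50.4 CPM, others 680.3 to 966 CPM).

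In the bone marrow HFD arm, library 1_3 was high for Cat (37.9 CPM, others 0.393 to 0.447 CPM), Gstt1 (367 CPM, others up to 0.894 CPM) and Txnrd2 (108 CPM, others up to 0.201 CPM). Ggt5 was high in 14_17 (162 CPM, others up to 0.474 CPM) and Gstm2 in 5_11 (9.93 CPM, others up to 1.18 CPM). Library 23_28 was high for Txnrd1 (599 CPM, others up to 2.42 CPM) and low for Sod1 (3.97 CPM, others 394 to 689 CPM).

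The glutamine effect differed between tissues by the test of the difference itself for Gstt1 (7.37 on the log2 scale), Mgst3 (9.42) and Srxn1 (-7.28), adipose effect minus bone marrow effect. These are 3 of 42 genes (7.14%), beside 11.9% of all genes. With upper-quartile or with relative log expression factors 0 of the 42, and 0 of all genes, were called. The call held in 10 of 27 alternatives for Gstt1, 11 of 28 for Mgst3 and 9 of 28 for Srxn1.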

How the results depend on the processing

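The count of 0 antioxidant genes called for glutamine in adipose held under all alternatives run, and the median log2 value ran from -0.08 to 0.06 when 1 library was left out. In bone marrow 0 were called with TMM factors and without any 1 library (median -1.02 to -0.27), against 1 with DESeq2 (20.8% of all genes) and 6 of 42 in the joint fit of all 18 libraries (25.8% of all genes). For the difference of effects the 3 calls became 0 with relative log expression factors, upper-quartile factors, limma-voom, the replicate block, and the block's 16 libraries without it, and 0 to 4 when 1 library was left out. Between tissues, the median relative to all genes was -0.75 with limma-voom and -2.78 to -1.99 when 1 library was left out, and 17 to 25 genes were called. The difference of Txnrd1 turned to 0.56 with limma-voom, 0.45 with the replicate block, 0.98 without bone marrow HFD library 23_28 and 0.82 without both libraries that stood apart. That of Txnrd2 turned to 0.28 with limma-voom, 0.80 with the block and 0.43 without bone marrow HFD library 1_3. Leaving out 1 library gave -3.08 to 0.98 for Txnrd1 and -4.06 to 0.43 for Txnrd2. The cause was not tested. The calls for the difference held in 10 of 27 alternatives for Gstt1 (adjusted p 0.0378 to 1), 11 of 28 for Mgst3 (2.91e-05 to 1) and 9 of 28 for Srxn1 (0.00133 to 1). Mgst1 and Prdx2 were called between tissues in 28 of 28.

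Whether number pairs shared by both tissues mark paired libraries could not be decided, because bone marrow libraries of the same arm lay far apart. The main fits took the libraries as unpaired. Over 8 pairs the correlation of deviations was -0.0069 to 0.0253, and the own number was highest in 4 of 8. With the replicate block 18 genes were called between tissues (15 higher, 3 lower), against 20 (12 higher, 8 lower) in the same libraries without it. The arms of a tissue share no numbers, so no block could be fitted for glutamine within a tissue. In bone marrow 9 of the 42 genes reached 100 counts in no library.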
